A study of Mus musculus with 20 samples.

Results

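*Notch1*, *Notch2*, *Notch3*, *Notch4*, *Jag1*, *Jag2*, *Dll1*, *Dll4*, *Hes1* and *Hey1* were described across normal skin and carcinomas of p53-deficient mice. These 10 genes, chosen by name, are read by 19 probesets annotated to a single one of them, out of 45037 probesets and 18193 genes measured in all. A gene's brightest probeset, by its mean over the 20 arrays, stood for it, and the others served as a check. All samples came from FVB mice. They were 5 samples of skin from wild type mice of 2 months, 7 carcinomas from Trp53ΔEC mice and 8 from RbΔEC; Trp53ΔEC mice. In the first model Cre under the Keratin 14 promoter, which is active in the basal layer of stratified epithelia, removes floxed *Trp53*, and in the second it removes floxed *Rb1* as well. Only epithelial cells and their descendants thus lose the genes, while stroma and vessels in the samples do not. By histology, 6 tumors were poorly differentiated carcinomas (2 Trp53ΔEC, 4 RbΔEC; Trp53ΔEC), 4 were mixed (3 and 1) and 5 were undifferentiated or spindle carcinomas (2 and 3). No tumor is labelled with an age, so that age and tumor growth cannot be told apart in any comparison with skin. Nor is it stated that the tumors grew in separate mice, so the p-values measure only the spread between these samples.

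Notch receptors are single-pass membrane proteins that are activated by ligands of the Jagged and Delta-like families on a neighbouring cell. Binding exposes the receptor to cleavage by an ADAM protease and then by gamma-secretase, and the freed intracellular domain enters the nucleus, joins the DNA-binding protein RBPJ and a Mastermind coactivator, and switches on genes such as *Hes1* and *Hey1*, which encode repressors. In the epidermis the pathway drives keratinocytes out of the basal layer into differentiation, and *Notch1* acts there as a tumor suppressor. In blood vessels *Dll4* marks the endothelial tip cells, *Notch4* is mostly endothelial and *Notch3* is the main receptor of the mural cells around vessels.

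The values are log2 expression values that the authors made by RMA, so that a difference of 1 is a doubling of signal. Array medians ranged from 5.59 to 5.75. The skin samples also held muscle and fat. The mean of the 10 skeletal muscle markers (among them *Acta1*, *Tnni2* and *Mylpf*) lay between 13.43 and 13.99 in skin and between 5.11 and 8.86 in tumors. The mean of the 8 adipocyte markers measured (*Fabp4*, *Retn*, *Plin4*) lay between 9.87 and 10.57 in skin and between 5.23 and 7.09 in tumors. *Rb1* was read at 8.95 to 9.26 in skin, 7.85 to 8.84 in Trp53ΔEC tumors and 6.55 to 8.14 in RbΔEC; Trp53ΔEC tumors. The ranges of both genotypes overlapped. The 3 undifferentiated/spindle libraries labelled RbΔEC; Trp53ΔEC were at 8.02 to 8.14, above the 2 Trp53ΔEC libraries of that class (7.86 and 7.93), while the other RbΔEC; Trp53ΔEC libraries (6.55 to 7.53) lay below every Trp53ΔEC tumor. *Rb1* in these 3 libraries thus did not follow their genotype label, and the main results are given without them too. The part of stroma and vessels, which keep *Rb1*, in these values was not tested. The difference between genotypes of −0.78 (standard error 0.25) did not pass limma's test (adjusted p = 0.701). The sources used here do not say whether this probeset lies in the deleted part of the gene. *Trp53* was not analysed here.

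RefSeq promoter windows (build GRCm38.p6) were held for 8 of the 10 members, 9 windows in all, and not for *Hes1* and *Hey1*. The 250 bases before each start were searched on both strands for the RBPJ core TGGGAA, and none of the 9 windows held it, against 21.6% of all 32851 promoters of the same length. A further 13 motifs were added once results were known. GGGCGG, a *Sp1*-type box present in 32.7% of promoters, occurred in the windows of *Notch1*, *Notch2*, *Notch3*, *Jag2* and *Dll4*, where 2 of the *Jag2* matches overlapped each other. AGGAAG, an extended ETS-type core (29.5%), occurred in *Notch4* and *Dll1*. CCAAT (33.8%) occurred in *Dll4* and *Dll1*, GGAATG (12.6%) in *Notch1* and *Notch4*, and CACGAG (5.4%) in *Notch3*. CAGGTG (17.2%) and TGANTCA (6.7%) occurred in *Dll1*, and TTTCCCGC (0.9%) in *Notch2*. The *Jag2* window, and the *Dll1* window that held AGGAAG and CCAAT, overlapped the annotated gene, so that their matches may lie inside it. CCGGAA (3952 of the promoters), CACGTG (6.0%), TGTTTAC (3.2%), TTTCGCG (0.7%) and TTTGGCGC (0.4%) occurred in none. The following promoters are shown because the RNA of *Notch4* and *Dll4* was higher, and that of *Jag1* lower, in undifferentiated/spindle carcinomas. Capitals mark AGGAAG or GGGCGG, or their reverse complements CTTCCT and CCGCCC.
Notch4, chr17:34564045-34564285, plus strand: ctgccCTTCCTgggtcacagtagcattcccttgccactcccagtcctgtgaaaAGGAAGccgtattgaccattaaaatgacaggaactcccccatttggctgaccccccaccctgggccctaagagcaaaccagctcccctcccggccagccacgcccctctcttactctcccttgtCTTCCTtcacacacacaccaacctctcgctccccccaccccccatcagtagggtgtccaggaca
Dll4, chr2:119325534-119325783, plus strand: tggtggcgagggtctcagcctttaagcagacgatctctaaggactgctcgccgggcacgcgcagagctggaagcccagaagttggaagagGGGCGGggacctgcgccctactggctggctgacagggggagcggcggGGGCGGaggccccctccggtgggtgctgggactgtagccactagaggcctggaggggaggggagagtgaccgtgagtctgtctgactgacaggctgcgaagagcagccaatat
Jag1, chr2:137116521-137116770, minus strand: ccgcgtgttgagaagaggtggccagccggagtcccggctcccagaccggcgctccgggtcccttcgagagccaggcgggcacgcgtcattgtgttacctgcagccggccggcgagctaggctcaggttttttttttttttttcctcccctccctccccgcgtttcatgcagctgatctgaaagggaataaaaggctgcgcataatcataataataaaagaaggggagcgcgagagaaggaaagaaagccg
Each run ends at the base before the annotated gene, and the *Notch4* run is therefore 241 bases long. *Notch4* held AGGAAG or CTTCCT 3 times. As many matches occur in 1.22% of all promoters, a share given here for 1 of the 14 motifs. GGGCGG was also repeated in the windows of *Notch1*, *Notch2*, *Notch3* and *Jag2*, and 3 or more matches of it occur in 8.47% of all promoters. *Dll4* held GGGCGG 2 times, and the *Jag1* window held none of the 14 motifs. These matches are letters in a window and say nothing about which factor binds there.

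**Figure D1:**
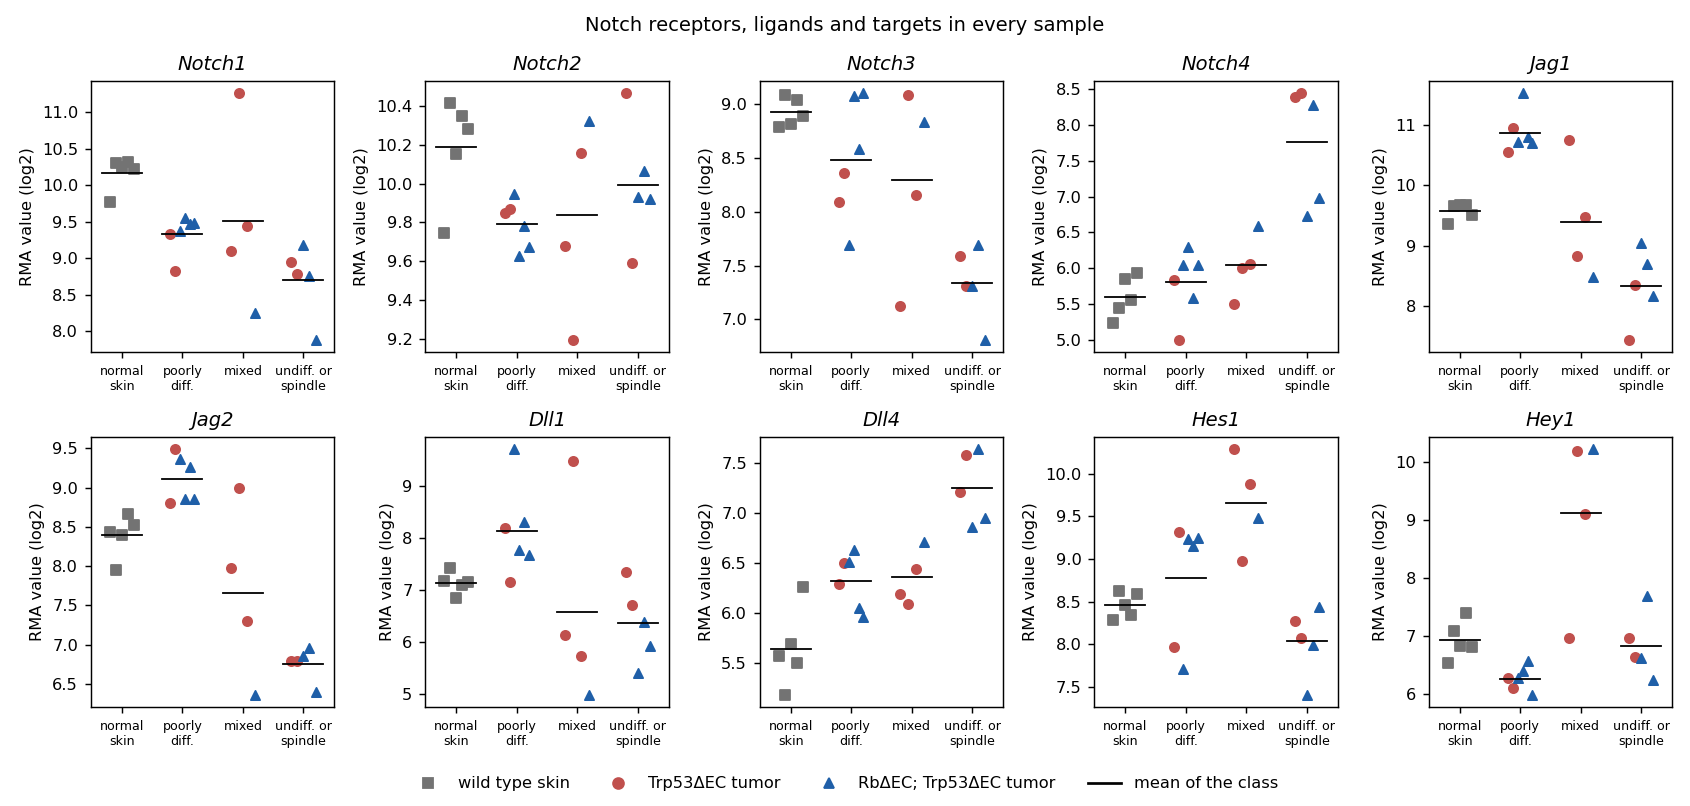
RMA log2 value (y axis) of each of the 10 genes in every sample, by class (x axis). Squares are wild type skin, circles Trp53ΔEC tumors, triangles RbΔEC; Trp53ΔEC tumors, and the lines are class means; Notch4 and Dll4 are highest in the undifferentiated or spindle class, Jag1 and Jag2 in the poorly differentiated class, and Hey1 in 3 of 4 mixed tumors.

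The comparison of histological grade, 5 undifferentiated/spindle against 6 poorly differentiated carcinomas, divided the members. *Notch4* and *Dll4*, both known from endothelium, were higher in undifferentiated/spindle carcinomas, and *Notch3* and the ligand genes *Jag1*, *Jag2* and *Dll1* were lower. By limma over all genes, 2 of the 10 members were higher and 4 were lower at an adjusted p under 0.05, where 12.7% of all genes were higher and 9.90% lower. The median difference of the members was −0.68, against 0.02 over all genes. In 5 of the 10 members (*Notch3*, *Notch4*, *Jag1*, *Jag2* and *Dll4*) the values of the 2 classes did not overlap, against 14.3% of all genes in either direction. The mixed tumors were left out of this comparison. Without the 3 undifferentiated/spindle libraries labelled RbΔEC; Trp53ΔEC, a comparison chosen after seeing the data, *Notch4* (2.60), *Jag1* (−2.98), *Jag2* (−2.32) and *Dll4* (1.07) passed, and *Notch3* (−1.03, limma adjusted p = 0.125) and *Dll1* (−1.11, adjusted p = 0.288) did not. That comparison set 2 Trp53ΔEC tumors against 6 poorly differentiated ones, 4 of them RbΔEC; Trp53ΔEC. Grade and genotype are thus partly mixed in it, and fewer samples were fitted.

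Among the receptors, *Notch4* (chr17:34564286-34588543, GRCm38.p6) showed the largest difference by grade. Its values in the undifferentiated/spindle carcinomas were 8.38 and 8.44 in the Trp53ΔEC tumors and 6.73, 8.28 and 6.98 in the RbΔEC; Trp53ΔEC tumors. In poorly differentiated carcinomas it had a lowest value of 5.01, a median of 5.94 and a highest value of 6.30. All 5 undifferentiated/spindle carcinomas thus exceeded all 6 poorly differentiated ones, and they split into 3 tumors at 8.28 or more and 2 at 6.98 or less. The difference was 1.96 (standard error 0.36, limma adjusted p = 0.00235). Skin, at 5.23 to 5.94, overlapped with the poorly differentiated class, and the undifferentiated/spindle class differed from its nearest neighbour, the mixed tumors, by 1.72 (adjusted p = 0.00195). The 2 other probesets of *Notch4* lay at percentiles 11.9 and 20.3 of all probesets by mean signal, and neither passed the test by grade. With the median of the 3 probesets in place of the brightest one, the difference was 0.19 (limma adjusted p = 0.477), so that the *Notch4* result rests on 1 probeset.

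*Notch3*, the receptor of mural cells that is also made by differentiating keratinocytes, ran the other way. The undifferentiated/spindle carcinomas were at 7.59 and 7.31 (Trp53ΔEC) and at 7.31, 7.69 and 6.81 (RbΔEC; Trp53ΔEC). In the poorly differentiated class the lowest value was 7.69, the median 8.47 and the highest 9.10. The highest undifferentiated/spindle tumor and the lowest poorly differentiated one were 7.687 and 7.689, so that the groups were only just separate. *Notch3* was lower by 1.14 (standard error 0.26, limma adjusted p = 0.00904), and its other probeset was lower too (−1.07, standard error 0.22, adjusted p = 0.00567). In skin it was read at 8.79 to 9.08. The order of class means was skin, poorly differentiated, mixed, undifferentiated/spindle, and no neighbours in it differed past the test. By grade 2 of 10 mural markers (*Abcc9* and *Mcam*) were higher and none lower, and their mean was 7.58 to 8.79 in poorly differentiated, 8.73 to 9.27 in undifferentiated/spindle carcinomas and 9.67 to 9.83 in skin. The part of these cells in the *Notch3* difference was not tested.

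*Notch1*, the main epidermal receptor, had values of 8.95 and 8.78 in the Trp53ΔEC and 9.18, 8.76 and 7.89 in the RbΔEC; Trp53ΔEC undifferentiated/spindle carcinomas. The poorly differentiated class ran from 8.82 through a median of 9.42 to 9.56, so the classes overlapped. The difference of −0.63 (standard error 0.22) missed the threshold by limma (adjusted p = 0.0592), with a 95% interval of −1.11 to −0.15. Its other probeset differed by −0.62 (standard error 0.20) and missed it too (limma adjusted p = 0.0528). *Notch1* passed in 3 of 17 alternative settings, over which the difference ran from −0.87 to −0.21. *Notch2*, which is broadly expressed, was between 9.20 and 10.47 in all tumors. Its difference by grade was 0.21 (standard error 0.14, adjusted p = 0.351), with an interval from −0.11 to 0.52, and none of its class neighbours differed past the test.

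*Jag1* and *Jag2*, the ligands with a cysteine-rich domain, and *Dll1* were lower in the less differentiated carcinomas. *Jag1* (chr2:137081451-137116520) was read in undifferentiated/spindle carcinomas at 7.44 and 8.35 (Trp53ΔEC) and at 9.04, 8.69 and 8.16 (RbΔEC; Trp53ΔEC). The poorly differentiated carcinomas ran from 10.55 through a median of 10.76 to 11.52, above the 5 skin samples, which lay between 9.37 and 9.68. Skin stood between the 2 tumor classes without overlap on either side. The share of all genes that did not overlap between a single class and skin was not counted, here or for the other members. By grade *Jag1* was lower by 2.54 (standard error 0.27, limma adjusted p = 4.86e-05). Against skin, the poorly differentiated class was higher by 1.30 (standard error 0.33, adjusted p = 0.00390) and the undifferentiated/spindle class lower by 1.24 (standard error 0.34, adjusted p = 0.00631). Both other *Jag1* probesets were lower by grade, with differences of −1.39 and −2.52. With the median of its 3 probesets, the difference of the undifferentiated/spindle class from skin was −0.28 and did not pass (adjusted p = 0.551).

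*Jag2* (chr12:112907803-112929812) had the smallest p of the members by grade. It was read at 6.79, 6.79, 6.86, 6.95 and 6.40 in the 5 undifferentiated/spindle carcinomas. In the poorly differentiated class the lowest value was 8.80, the median 9.06 and the highest 9.49. All 5 undifferentiated/spindle carcinomas lay below all 6 poorly differentiated ones. *Jag2* was lower by 2.35 (standard error 0.16, limma adjusted p = 1.95e-06), and the difference of its other probeset was −1.84 (standard error 0.15). Skin, at 7.95 to 8.66, again lay between the classes, and of its neighbours in the order of means neither the poorly differentiated class (0.71 higher, adjusted p = 0.0781) nor the mixed class differed past the test.

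Of the 4 ligand genes among the members, *Dll1* had the largest standard error by grade. Undifferentiated/spindle carcinomas gave 7.34 and 6.71 (Trp53ΔEC) and 5.40, 6.38 and 5.92 (RbΔEC; Trp53ΔEC), and poorly differentiated ones ran from 7.15 through 7.97 to 9.71. The classes overlapped by 1 Trp53ΔEC tumor on each side. The difference was −1.78 (standard error 0.45, limma adjusted p = 0.0140). Within Trp53ΔEC tumors alone, 2 against 2, it was −0.65 (adjusted p = 0.525), and within RbΔEC; Trp53ΔEC tumors the means were 8.36 in 4 poorly differentiated and 5.90 in 3 undifferentiated/spindle carcinomas.

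*Dll4* (chr2:119325784-119335666), the ligand of sprouting endothelium, was the ligand gene that was higher. It was read at 7.21 and 7.58 (Trp53ΔEC) and at 6.87, 7.64 and 6.96 (RbΔEC; Trp53ΔEC) in undifferentiated/spindle carcinomas. In poorly differentiated ones it ran from 5.96 through 6.40 to 6.64, so the classes did not overlap. *Dll4* was higher by 0.93 (standard error 0.18, limma adjusted p = 0.00347), as was its other probeset (0.82, standard error 0.20, adjusted p = 0.0148). In the order of class means, undifferentiated/spindle carcinomas exceeded mixed tumors (0.89, adjusted p = 0.00659), mixed and poorly differentiated tumors did not differ past the test (0.03), and the poorly differentiated class exceeded skin (0.68, adjusted p = 0.00918).

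**Figure D2:**
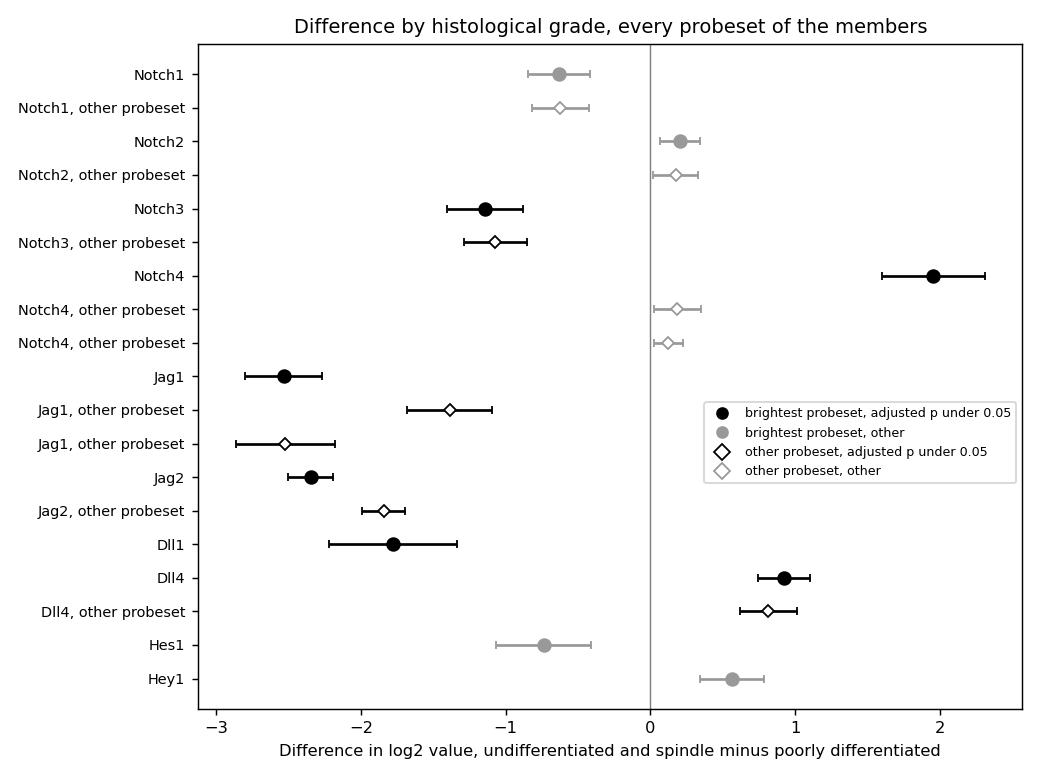
Difference in log2 value between 5 undifferentiated/spindle and 6 poorly differentiated carcinomas (x axis) for each of the 19 probesets (y axis); bars are standard errors, and black marks an adjusted p under 0.05. The probesets of Jag1, Jag2, Notch3 and Dll4 lie on 1 side for each gene, and only the brightest Notch4 probeset is far from 0.

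The target genes *Hes1* and *Hey1* were highest in the mixed tumors. *Hes1* was read at 10.29, 8.98 and 9.88 in the 3 Trp53ΔEC mixed tumors and at 9.48 in the RbΔEC; Trp53ΔEC one. Skin lay between 8.29 and 8.62 and the undifferentiated/spindle carcinomas between 7.40 and 8.44, so the 4 mixed tumors exceeded both without overlap. The 6 poorly differentiated carcinomas formed 2 sets, with 2 at 7.71 and 7.97 and 4 between 9.15 and 9.32. In the fit over all 20 arrays the mixed class was higher than skin by 1.20 (standard error 0.33, limma adjusted p = 0.00660) and higher than the poorly differentiated class by 0.88 (adjusted p = 0.0481; 0.161 without Trp53ΔEC tumor 3), and the undifferentiated/spindle class was lower than the mixed one by 1.62 (adjusted p = 0.00204). Between undifferentiated/spindle and poorly differentiated carcinomas the difference of −0.74 did not pass (standard error 0.33, adjusted p = 0.142). With the *Actb* 3'/5' difference as a covariate it was −1.70 and passed (adjusted p = 0.00773). The 2 classes did not overlap in that covariate, so the fit cannot separate it from grade.

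*Hey1* spanned a wider range. In the mixed class it was 6.97, 10.19 and 9.10 in the Trp53ΔEC tumors and 10.23 in the RbΔEC; Trp53ΔEC tumor. All the other samples, skin included, lay between 5.99 and 7.69, so that 3 of the 4 mixed tumors stood above every other array and the fourth, Trp53ΔEC tumor 3, lay among them. The mixed class was higher than skin by 2.19 (standard error 0.47, limma adjusted p = 0.000983) and than the poorly differentiated class by 2.85 (standard error 0.45, adjusted p = 0.000156). Poorly differentiated carcinomas, at 5.99 to 6.58, did not differ past the test from undifferentiated/spindle carcinomas, at 6.25 to 7.69 (0.56, standard error 0.22, adjusted p = 0.0960). *Hes1* and *Hey1* did not follow each other within the mixed class: the tumor with the highest *Hes1* had the lowest *Hey1*. Cell type markers also differed between mixed tumors and skin: all 10 suprabasal, 6 of 10 basal, 2 of 10 hair follicle, 9 of 12 endothelial, 4 of 10 mural, 8 of 10 fibroblast, 7 of 10 macrophage and 5 of 8 T cell markers were lower, as were all muscle and adipocyte markers measured, and 1 endothelial and 1 macrophage marker were higher. Their part in the *Hes1* and *Hey1* differences was not tested.

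Counted over the members, the mixed class had 2 genes higher (*Hes1* and *Hey1*) and 2 lower (*Jag1* and *Jag2*) than poorly differentiated carcinomas, where 13.5% of all genes were higher and 11.9% lower. Undifferentiated/spindle carcinomas had 2 higher (*Notch4* and *Dll4*) and 3 lower (*Jag1*, *Hes1* and *Hey1*) than mixed tumors, against 10.2% and 9.15% of all genes. With the unequal-variance t-test, which takes the separate spread of each group compared, no member passed in these 2 comparisons or in mixed tumors against skin. The mixed tumors differed widely among themselves. Trp53ΔEC tumor 5 was the highest of the 4 in *Notch1* (11.26, the others 8.25 to 9.44), *Jag2* (8.99, the others 6.36 to 7.98) and *Dll1* (9.47, the others 4.97 to 6.12). The RbΔEC; Trp53ΔEC mixed tumor was the lowest in *Notch1*, *Jag1* (8.47), *Jag2* and *Dll1*. *Jag1* itself ran from 8.47 to 10.76 over the 4.

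Markers of keratinocytes and of endothelium moved with the ligands by grade. In bulk tissue, fewer cells of a type and less RNA per cell cannot be told apart. All 10 basal keratinocyte markers (*Krt14*, *Krt5* and *Itga6* are the brightest) and 9 of 10 suprabasal markers (*Sbsn*, *Krt10*, *Krtdap*) were lower in undifferentiated/spindle carcinomas. The mean of the basal markers ran from 11.12 to 11.76 in poorly differentiated carcinomas, from 10.83 to 11.17 in skin, from 6.17 to 11.03 in mixed tumors and from 5.702 to 7.92 in undifferentiated/spindle carcinomas. Of the 12 endothelial markers, 7 (*Cdh5*, *Kdr*, *Emcn*, *Robo4*, *Esam*, *Cldn5* and *Eng*) were higher by grade and none lower. Their mean was 6.22 to 7.66 in poorly differentiated carcinomas, 6.55 to 7.32 in mixed tumors, 7.46 to 8.45 in undifferentiated/spindle carcinomas and 7.59 to 7.89 in skin. RMA gives no value of 0, and no marker can be called absent.

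**Figure D3:**
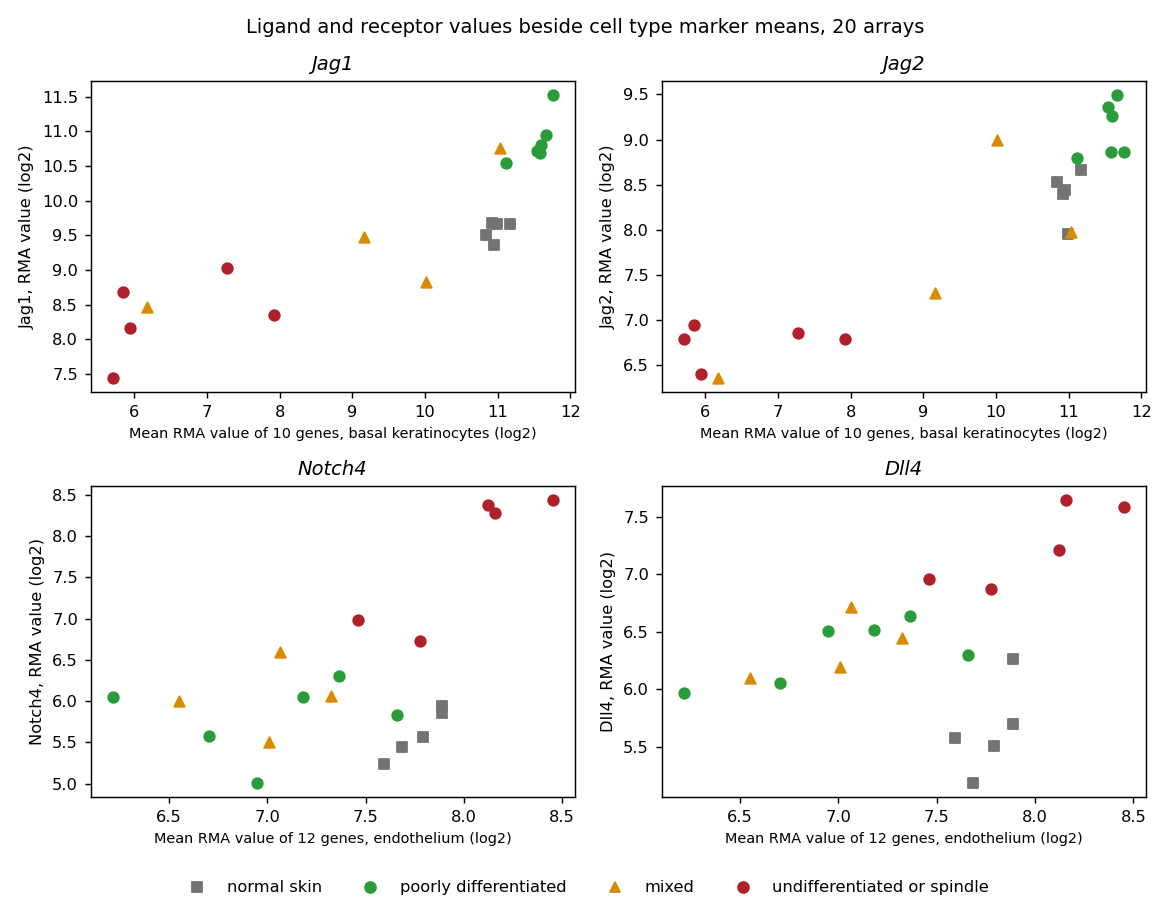
RMA log2 values of Jag1, Jag2, Notch4 and Dll4 (y axes) beside the mean of 10 basal keratinocyte or 12 endothelial markers (x axes) in the 20 arrays. Squares are skin, triangles mixed tumors, green and red circles poorly differentiated and undifferentiated/spindle carcinomas; the RbΔEC; Trp53ΔEC mixed tumor lies with the undifferentiated/spindle class in the upper panels, and skin lies below the undifferentiated/spindle class in the lower panels.

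In the plot of ligands beside markers, the RbΔEC; Trp53ΔEC mixed tumor, with a basal marker mean of 6.17, had *Jag1* and *Jag2* values of 8.47 and 6.36. The 3 Trp53ΔEC mixed tumors, with basal means of 9.17 to 11.03, had *Jag1* values of 8.83 to 10.76 and *Jag2* values of 7.30 to 8.99. Among them, Trp53ΔEC tumor 5, with a basal mean of 10.01, had *Jag1* at 8.83, inside the range of the undifferentiated/spindle class. Skin and undifferentiated/spindle carcinomas overlapped in their endothelial means but not in *Dll4*, which was 5.18 to 6.26 in skin and 6.87 to 7.64 in the carcinomas, nor in *Notch4*. The 3 undifferentiated/spindle tumors with endothelial means of 8.12 or more were the 3 with *Notch4* at 8.28 or more. The part of these cells in the differences was not tested. Of the other lists, 6 of 10 macrophage markers (*Adgre1*, *Csf1r*, *Cx3cr1*, *Fcgr1*, *C1qa*, *C1qb*) and 1 of 10 fibroblast markers (*Pdgfra*) were higher, 4 of 10 hair follicle markers were lower, and no muscle, adipocyte or T cell marker passed by grade. The *Actb* 3'/5' probeset difference, a measure of RNA integrity, also moved with grade, from 0.42 to 0.82 in poorly differentiated and from 0.24 to 0.38 in undifferentiated/spindle carcinomas. With it as a covariate, *Dll1* (−0.80, adjusted p = 0.417) and *Dll4* (0.93, adjusted p = 0.0557) no longer passed limma's test, and *Notch3*, *Notch4*, *Jag1* and *Jag2* did.

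Set against normal skin, the 15 tumors of all classes had 1 member higher and 2 lower, where 17.7% of all genes were higher and 18.0% lower. *Dll4* was higher: it ran from 5.96 through a median of 6.51 to 7.64 in tumors, and was 5.57, 5.18, 5.697, 5.50 and 6.26 in skin. Its mean was 6.64 in tumors and 5.64 in skin (95% interval of the difference 0.48 to 1.52, limma adjusted p = 0.00372). The other *Dll4* probeset differed by 0.35 and did not pass (adjusted p = 0.231). *Notch1* was lower by 0.999 (standard error 0.33, adjusted p = 0.0236), with skin at 9.77 to 10.33 and tumors at 7.89 to 11.26, and a single tumor, Trp53ΔEC tumor 5, above the skin samples. *Notch3* was lower by 0.87 (standard error 0.34, adjusted p = 0.0491). None of the 10 members separated tumors from skin without overlap, against 13.3% of all genes.

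The *Notch1* and *Notch3* differences from skin were not firm. The other *Notch1* probeset had a difference of 0.29 in the opposite direction, which did not pass (adjusted p = 0.424), and leaving out skin sample 2, 3, 4 or 5 in turn gave an adjusted p of 0.0504 to 0.0569 for *Notch1* and 0.0791 to 0.103 for *Notch3*. Leaving out skin sample 1 ended the *Notch3* call as well (adjusted p = 0.0757), as did leaving out most of the tumors 1 at a time (up to 0.0663). All 10 skeletal muscle and all 8 adipocyte markers measured were lower in tumors, as were 6 of 10 fibroblast, 5 of 10 suprabasal, 4 of 10 mural, 4 of 10 hair follicle, 4 of 8 T cell, 3 of 12 endothelial and 1 of 10 basal keratinocyte markers. Only *Flt1* of the endothelial and *Cd14* of the macrophage markers were higher, and in undifferentiated/spindle carcinomas alone 4 of 12 endothelial markers were higher and 1 lower than in skin. The *Actb* 3'/5' difference had a mean of 0.72 in skin and 0.47 in tumors. The part of these tissues and of RNA quality in the *Dll4*, *Notch1* and *Notch3* differences was not tested. Without the 3 undifferentiated/spindle libraries labelled RbΔEC; Trp53ΔEC, *Dll4* (0.87) and *Notch1* (−0.86) passed and *Notch3* (−0.68, adjusted p = 0.106) did not.

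By class, and always against the same 5 skin samples, so that the comparisons share their controls, the members differed as follows. Poorly differentiated carcinomas had 2 members higher (*Jag1* and *Dll4*) and none lower, against 19.2% and 19.6% of all genes. That fit shares 1 spread over skin and all classes. By the unequal-variance t-test *Notch1* (−0.83, adjusted p = 0.00296) and *Hey1* (−0.66, adjusted p = 0.0220) were lower, and *Jag2* (0.71, adjusted p = 0.0115) was higher. *Notch1* did not overlap, at 8.82 to 9.56 against 9.77 to 10.33 in skin, but its other probeset had means of 7.65 and 7.13. In the shared fit, mixed tumors had 3 higher (*Dll4*, *Hes1* and *Hey1*) and none lower, against 21.9% and 21.5%. Undifferentiated/spindle carcinomas had 2 higher and 4 lower, against 22.0% and 20.2%. *Dll4* was higher in each of them, by 0.68, 0.72 and 1.61, but with the median of its 2 probesets it no longer passed in the poorly differentiated (0.38, adjusted p = 0.0949) and mixed tumors (0.41, adjusted p = 0.0947). In the last class *Notch4* was higher by 2.15 (standard error 0.33, limma adjusted p = 3.50e-05), *Notch1* lower by 1.47 (standard error 0.38, adjusted p = 0.00403; −0.79 and 0.0692 with the median of its 2 probesets), *Notch3* lower by 1.58 (standard error 0.31, adjusted p = 0.000482) and *Jag2* lower by 1.64 (standard error 0.32, adjusted p = 0.000454). The *Actb* 3'/5' difference was 0.50 to 1.19 in skin and 0.24 to 0.38 in undifferentiated/spindle carcinomas, without overlap, and its part in these differences was not tested. Without Trp53ΔEC tumor 5, 6 members passed in poorly differentiated and 7 in mixed tumors, and without RbΔEC; Trp53ΔEC tumor 4, 4 passed in poorly differentiated ones. Both are mixed tumors, so in the poorly differentiated comparison only the shared spread changed and the differences did not.

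A difference between genotypes was not detectable in any member. None of the 10 passed limma's test between 8 RbΔEC; Trp53ΔEC and 7 Trp53ΔEC tumors, at an unadjusted p under 0.05 either, and none passed the unequal-variance t-test, nor did any pass without the 3 undifferentiated/spindle libraries labelled RbΔEC; Trp53ΔEC. Over all genes 0.0110% were higher and 0.0220% lower. The genotypes differ in their make-up of histological classes, so class and genotype are mixed in this comparison. With class as a covariate, in poorly differentiated tumors only, or without the mixed tumors, no member passed either. The widest intervals were those of *Hey1* (−1.998 to 1.07) and *Dll1* (−1.76 to 1.30) and the narrowest was that of *Notch2* (−0.28 to 0.43). The difference by grade was also set against genotype. No member passed the interaction (0% of all genes in either direction), and 1, *Notch4*, had an unadjusted p under 0.05 (limma adjusted p = 0.675): the grade difference was 2.99 in Trp53ΔEC tumors, 2 against 2, and 1.33 in RbΔEC; Trp53ΔEC tumors, 3 against 4.

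**Figure D4:**
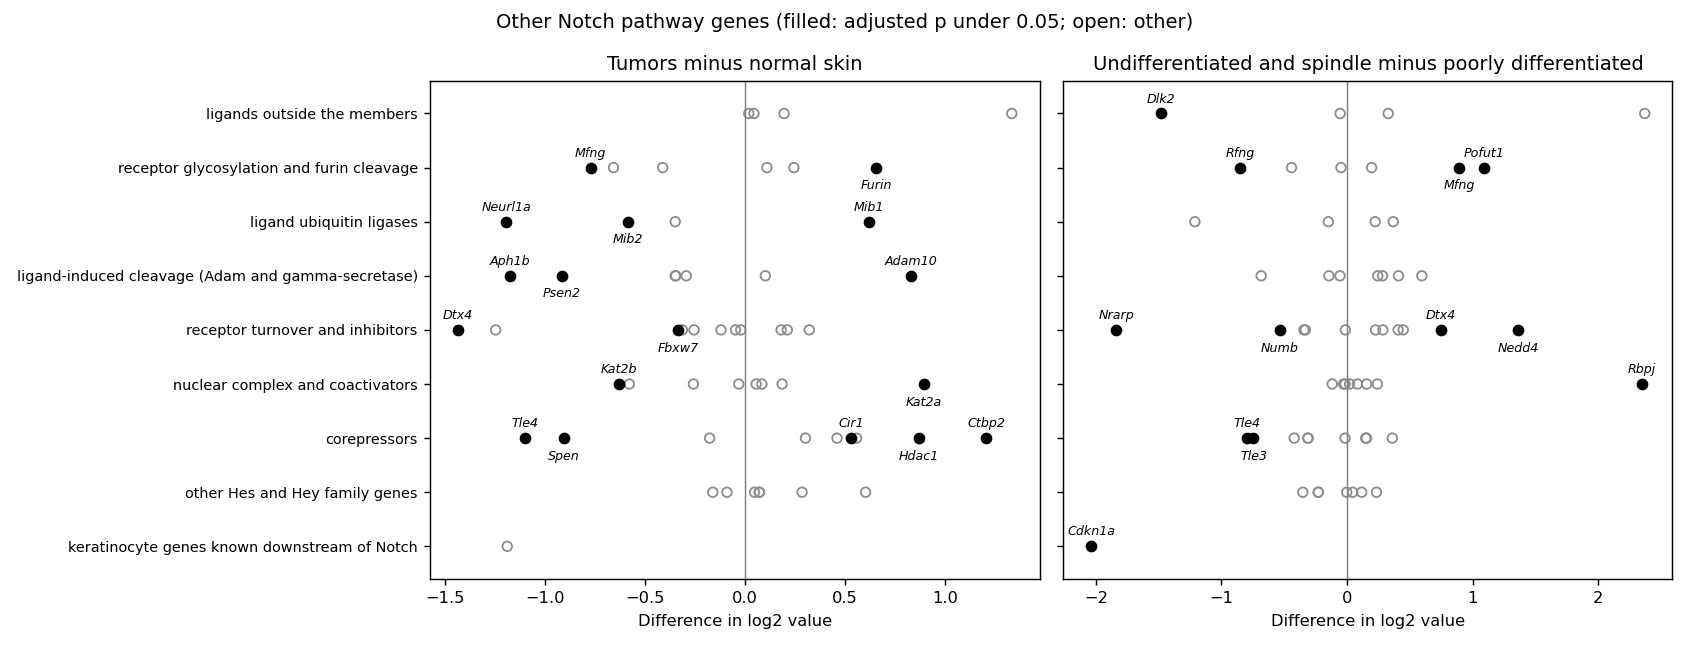
Difference in log2 value (x axes) of the 57 other pathway genes measured, by list (y axis), for 15 tumors against 5 skin samples (left) and for 5 undifferentiated/spindle against 6 poorly differentiated carcinomas (right). Filled and named points have an adjusted p under 0.05; Rbpj is the called gene farthest to the right by grade.

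Beyond the 10 members, 57 of 64 other genes of the pathway were measured. By grade 5 were higher and 7 lower, with a median of 0.00, and against skin 7 were higher and 10 lower, with a median of −0.02; between genotypes none passed. Over all genes 12.7% were higher and 9.90% lower by grade, and 17.7% and 18.0% against skin, so the shares of pathway genes that passed lay near or below these, and the called genes are given as single values. In the nuclear complex, *Rbpj*, which encodes the DNA-binding partner of the cleaved receptor, was the 1 of 8 genes that passed by grade. It was read at 10.64 to 11.37 in undifferentiated/spindle and at 7.93 to 9.51 in poorly differentiated carcinomas, without overlap, at 8.55 to 10.03 in mixed tumors and at 9.74 to 10.29 in skin. The difference by grade was 2.35 (standard error 0.28, limma adjusted p = 0.000131), and both other *Rbpj* probesets were higher, by 2.29 and 2.19. Against skin, *Kat2a* (0.89), a histone acetyltransferase, was higher and *Kat2b* (−0.63) lower.

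Among genes of receptor turnover and inhibition, 2 of 11 were higher by grade (*Nedd4*, a ubiquitin ligase, by 1.37, and *Dtx4*, a Deltex family member, by 0.75) and 2 lower. Of the latter, *Nrarp*, itself a Notch target whose product restrains the pathway, was at 8.13 to 8.67 in undifferentiated/spindle carcinomas and at 8.89 to 11.29 in poorly differentiated ones, a difference of −1.84 (standard error 0.44, limma adjusted p = 0.0112), and its other probeset was lower by 1.63. In mixed tumors *Nrarp* was at 7.44 to 9.32, below skin at 10.37 to 10.495, unlike *Hes1* and *Hey1*, whose class means were highest in mixed tumors. *Numb*, an inhibitor of Notch, was lower by 0.53. Against skin, *Dtx4* (−1.44) and *Fbxw7* (−0.33), which marks the intracellular domain for degradation, were lower. Of the 6 genes of receptor glycosylation and furin cleavage, *Pofut1* (1.09), which adds fucose to the receptors, and *Mfng* (0.90), a Fringe enzyme, were higher and *Rfng* (−0.85), another Fringe enzyme, lower by grade, while against skin *Furin* (0.66) was higher and *Mfng* (−0.77) lower.

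Of the corepressors, 2 of 9 were lower by grade, *Tle4* (−0.80) and *Tle3* (−0.75), of the Groucho family. Against skin *Ctbp2* (1.21), *Hdac1* (0.87) and *Cir1* (0.53) were higher and *Tle4* (−1.10) and *Spen* (−0.91) lower. None of the 4 ligand ubiquitin ligases and none of the 7 cleavage genes measured passed by grade; the smallest p among the ligases was that of *Neurl1b* (−1.21, limma adjusted p = 0.119) and among the cleavage genes that of *Ncstn* (0.60, adjusted p = 0.0778). Against skin, *Mib1* (0.62) was higher and *Mib2* (−0.59) and *Neurl1a* (−1.19) lower, and *Adam10* (0.83), the protease of the first cleavage, was higher and the gamma-secretase genes *Psen2* (−0.92) and *Aph1b* (−1.18) lower. Of the 4 further ligand genes *Dlk2*, a non-canonical ligand, was lower by grade (−1.48, adjusted p = 0.00229), and none passed against skin. None of the 7 other Hes and Hey genes measured passed in either comparison (the smallest limma adjusted p by grade was 0.164, of *Hes7*, and against skin 0.181, of *Hes2*). In mixed tumors against skin 2 of the 7, *Heyl* and *Hey2*, were higher and 0 lower, where 21.9% of all genes were higher and 21.5% lower. Of the 57 other pathway genes, 15 were higher and 11 lower in that comparison. *Heyl* was at 6.27 to 8.01 in mixed tumors and 5.27 to 6.02 in skin (difference 1.43, standard error 0.37, limma adjusted p = 0.00413), and *Hey2*, a dim probeset, at 3.57 to 6.48 and 3.65 to 3.81 (1.20, standard error 0.36, adjusted p = 0.0116). *Cdkn1a*, a gene downstream of Notch in keratinocytes and also of p53, was at 8.77 to 9.94 in undifferentiated/spindle, 7.49 to 9.71 in mixed, 10.53 to 12.16 in poorly differentiated tumors and 11.04 to 11.21 in skin, with a difference by grade of −2.04 (standard error 0.34, adjusted p = 0.00117).

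The genes most alike to each member were ranked by Pearson's r of log2 values over the 20 arrays, among 18193 genes and with no test. These arrays share the histological classes, so that any gene that follows grade ranks high. *Jag2* was most like *Tgfa* (r = 0.96), a ligand of the EGF receptor, *Cdcp1* (0.96) and *Itgb4* (0.95), a hemidesmosomal integrin. *Jag1* was most like *Fgfbp1* (0.94), *Endou* (0.94) and *Urah* (0.92), and *Hey1* like *Zscan21* (0.93), *Susd4* (0.92) and *Fam181b* (0.92). For *Dll4* they were *Yaf2* (0.91), *Xxylt1* (0.91), a xylosyltransferase that acts on Notch, and *Pvr* (0.90), and for *Notch4* *Exoc3l* (0.89), *Gpr31b* (0.87) and *Dok1* (0.87). *Notch3* was followed by *Endog* (0.89), *Acss2* (0.87) and *Fhdc1* (0.86), *Notch1* by *Nhsl1* (0.90), *Wipf3* (0.89) and *Fryl* (0.87), *Dll1* by *Tinagl1* (0.88), *Slc15a4* (0.86) and *Nrbf2* (0.85), *Hes1* by *Zfp867* (0.88), *Polr3k* (0.85) and *Sdhaf3* (0.84), and *Notch2* by *Foxred2* (0.82), *Angptl4* (0.81) and *Wt1os* (0.79). Over the 15 tumors alone the same 30 genes had r between 0.765 and 0.975 with their members.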

How the data were processed

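Total RNA of 20 samples had been hybridized to Affymetrix MOE430 2.0 arrays. The deposited log2 values had been background-corrected, normalized and summarized by the authors with RMA, of unstated version; RMA compresses differences of dim probesets, and the number of arrays limits the precision. Of 45101 probesets, 64 controls were left out, and 34945 had 1 gene symbol. The brightest probeset of each of 18193 genes was tested with limma 3.58.1 in R 4.3.3 (a two-sided test), and p-values were adjusted by Benjamini and Hochberg's method over the genes, with calls at an adjusted p under 0.05, and every probeset was tested over 45037. Pairs of groups were fitted on their own samples, and skin and the classes in 1 fit over 20 arrays. The members, the lists of pathway and cell type genes and the tests were chosen with earlier results of these data known. Named genes are the members, up to 4 called genes of each pathway list or the one with the smallest p, the 3 genes most like each member, and up to 3 bright markers of a list; called markers of endothelium and macrophages, and *Heyl* and *Hey2* in mixed tumors, were named after their values were seen. The functions were tested on simulated data. Alternatives were other tests, scalings, probeset rules, covariates and left-out samples. Figures were drawn with matplotlib 3.10.9 in Python 3.11.15. Listed pathway genes beyond the 57 measured were not analysed here.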

Additional observations from a re-analysis of the deposited data

Results flagged for a closer look

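In 4 of 60 groups of values of the members, a single sample lay far from the rest of its group by Dixon's criterion, which flags about 1 in 20 groups by chance. For *Notch1*, skin sample 1 was at 9.769 and the other skin samples at 10.217 to 10.325. Trp53ΔEC tumor 6 had a *Notch1* value of 8.819 among poorly differentiated carcinomas, the others of which were at 9.327 to 9.556. Trp53ΔEC tumor 5, a mixed tumor, had a *Notch1* value of 11.259, and the other tumors of its genotype were at 8.778 to 9.438. For *Hey1*, RbΔEC; Trp53ΔEC tumor 4, the mixed tumor of that genotype, was at 10.225 and the others at 5.987 to 7.686.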

How the results depend on the processing

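By grade, the signs of *Jag1*, *Jag2*, *Dll1*, *Notch3*, *Dll4* and *Notch4* were the same in all 17 alternative settings, and leaving out each tumor in turn left 6 to 7 of the 10 members past the test. The count fell from 6 to 3 in RbΔEC; Trp53ΔEC tumors only and to 2 in Trp53ΔEC tumors only, where fewer samples were fitted, and to 2 (*Jag1* and *Jag2*) with mixed tumors counted with undifferentiated/spindle ones. No label says that same-numbered samples are paired, and the numbers were taken as names. Correlations between same-numbered tumors of the 2 genotypes ran from −0.478 to 0.640. Histology was not removed from them, so they cannot decide on a pairing. With a replicate block the count was 0 (*Jag2* −2.58, limma adjusted p = 0.0766) and 102 genes passed, against 4106. With the block 2 members passed for tumors against skin and 0 between genotypes. Tumors against skin gave 3 members, or 1 to 3 leaving out each sample. Poorly differentiated carcinomas against skin gave 2 members, 5 by the unequal-variance t-test, 1 with the median of probesets, 4 with each array centred on its median, and 2 to 6 leaving out each sample. Mixed tumors against skin gave 3, 0 by the unequal-variance t-test and 3 to 7 leaving out each sample. Mixed against poorly differentiated tumors gave 4 and 0, with a range of 3 to 5, and undifferentiated/spindle against mixed tumors 5 and 0, with a range of 4 to 7. *Hes1* in mixed against poorly differentiated tumors (adjusted p up to 0.161) and *Jag1* in undifferentiated/spindle against mixed tumors (up to 0.179) lost their calls when most single samples were left out. Counts over all genes also moved by over 1.5 times. By grade they were 4106, 482 in Trp53ΔEC tumors only, 2004 with mixed tumors counted with poorly differentiated ones and 2556 with the *Actb* covariate. Without the 3 undifferentiated/spindle libraries labelled RbΔEC; Trp53ΔEC, a setting chosen after seeing the data, 2079 genes passed by grade and 2 between genotypes. Between genotypes 6 genes passed, 3 by the unequal-variance t-test or without the mixed tumors, and 0 with the block or in poorly differentiated tumors only. By the unequal-variance t-test the counts were 4674, against 7898, for mixed tumors and skin, 870, against 4623, for mixed and poorly differentiated tumors, and 527, against 3512, for undifferentiated/spindle and mixed tumors. The causes were not tested.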
